A study of Homo sapiens with 156 samples.

Results

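High doses of GSK032 and of decitabine (DAC) were compared directly in MV411 cells after 4 days of treatment. MV411 is a human acute myeloid leukemia line of monocytic character with a rearranged KMT2A gene. The comparison used 8 of the 156 RNA-seq libraries of the series, chosen by their labels: 2 libraries each of 2000 nM GSK032, 10000 nM GSK032, 2000 nM DAC and 10000 nM DAC. The 2 libraries of cells given the solvent DMSO for 4 days served as the reference level. No engineered allele or second agent is named for any of these groups. All 10 libraries come from 1 cell line. The labels do not state that replicates were grown separately, so the spread behind each p-value may be technical and is that of these libraries only.

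DNMT1 restores methyl groups on the CpG sites of newly replicated DNA, and its loss lets methylation fade as cells divide. Decitabine is a nucleoside that is built into DNA, where it binds DNMT1 covalently, so that the enzyme is lost and the DNA carries protein adducts. GSK032 (GSK3685032) inhibits DNMT1 reversibly and is not built into DNA. Promoters of germline genes are a well known class of sequence held silent by methylation in somatic cells, and interferon-stimulated genes are a well known response to double-stranded RNA from sequences that lost methylation. p53 target genes are a usual readout of damaged DNA.

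Values are FPKM, fragments scaled to transcript length and library size, as the authors deposited them. Differences are on the scale of log2(FPKM + 0.5) with their standard error, GSK032 minus DAC, with dose as a covariate. This scale understates the change of low genes. A gene was called when its Benjamini-Hochberg adjusted p in limma was below 0.05 and its difference at least 1. Of 59939 genes, 20225 reached 1 FPKM in at least 2 of the 10 libraries and were tested.

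The libraries fitted their label: all 12 myelomonocytic markers checked were at 1 FPKM or more in every library of both compounds, and 11 of 12 in DMSO. Of 6 lymphoid markers, summed FPKM ran from 0.86 to 3.74 over all 10 libraries. Of 6 markers of other tissues, PECAM1 and KRT18 were above 1 FPKM in every library, and COL1A1 reached 2.24 to 5.30 FPKM with DAC. Depth is unknown because no counts are used here. FPKM sums were unequal between libraries, and short RNAs made up 55.2 to 63.6% of them with GSK032, 63.3 to 67.6% with DAC and 57.1 to 61.5% in DMSO. Genes at 1 FPKM or more numbered 17077 to 17801, 16990 to 17909 and 15531 to 15848. The median difference of all genes tested was 0.15.

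In the direct comparison 1014 genes were called higher with GSK032, 5.01% of those tested, and 1096 higher with DAC, 5.42%. After rescaling the libraries by the median ratio of their genes the split was 815 to 1360, and after rescaling to equal sums, which short RNAs dominate, it was 4110 to 526. The libraries of the compounds did not overlap for 920 of the 1014 genes (90.7%) and 1004 of the 1096 (91.6%), against 21.2% and 14.3% of all genes tested. The same fit called 1940 genes higher (9.59%) and 1404 lower (6.94%) with GSK032 against DMSO, and 2176 higher (10.8%) and 2311 lower (11.4%) with DAC. Both of these comparisons use the same 2 DMSO libraries.

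The called genes were sorted by which compound moved them from the DMSO level. These classes depend on that reference and are given against DMSO only. With low doses of the same compound as the reference some calls changed, as for interferon genes with DAC. Of the 1014 genes higher with GSK032, 508 (50.1%) were called higher than DMSO with GSK032 and not called with DAC, 202 rose with both compounds, 106 fell with DAC alone, 12 fell with both and 1 moved in opposite directions. For 185 genes neither step from DMSO met both thresholds for a call. Of the 1096 genes higher with DAC, 674 (61.5%) rose with DAC alone, 101 rose with both, 90 fell with GSK032 alone, 5 fell with both, 2 moved in opposite directions and 224 were called against DMSO with neither compound. Genes that 1 compound alone raised above DMSO were the largest class on both sides. This held after the median-ratio rescaling, with 53.3% and 64.6%. Under equal sums it held for genes higher with DAC, with 62.0%, while of the 4110 genes higher with GSK032 24.0% rose with GSK032 alone and 34.6% fell with DAC alone.

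**Figure D1:**
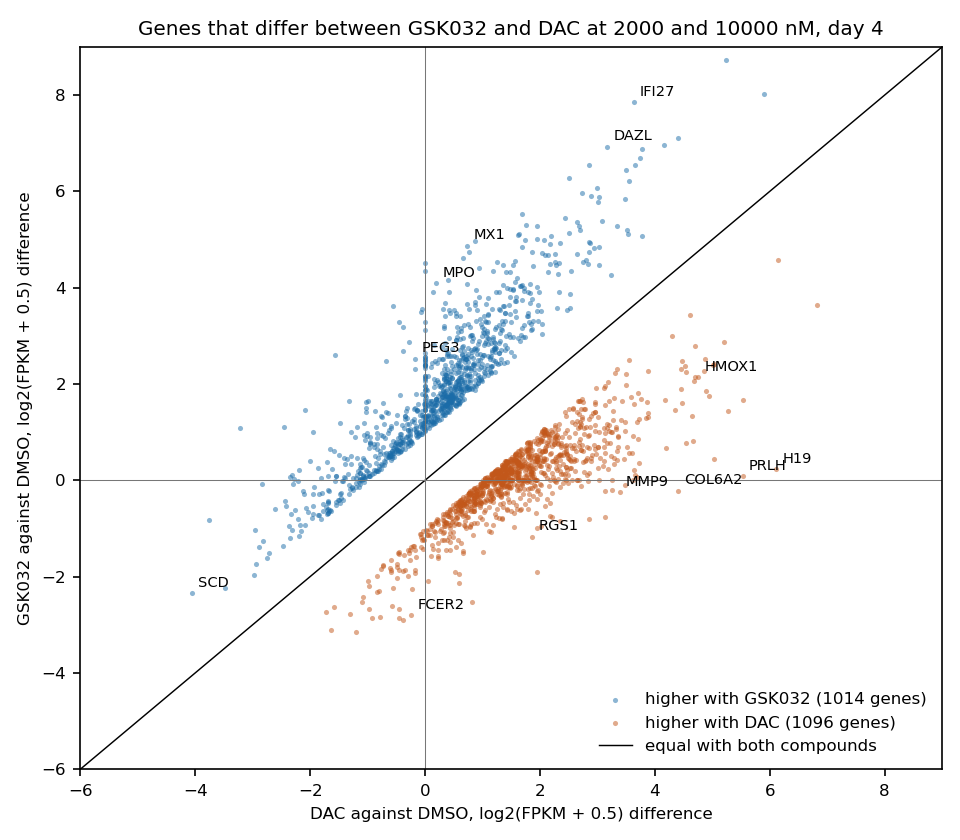
Each point is 1 of the 2110 genes called between the compounds, placed by its difference from DMSO with DAC (x axis) and with GSK032 (y axis), both on the log2(FPKM + 0.5) scale and sharing the DMSO libraries. Blue points, higher with GSK032, lie above the line of equality with IFI27 at 7.85 and 3.63, and orange points, higher with DAC, lie below it with H19 at 0.23 and 6.11.

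Interferon-stimulated genes were higher with GSK032. Of 50 genes in a list of such genes 49 were tested, 42 were called higher with GSK032 and 0 higher with DAC, with a median difference of 1.71. All 49 had their 4 GSK032 libraries above their 4 DAC libraries, against 21.2% of all genes tested. Against DMSO, 43 rose with GSK032 and 9 with DAC. The count for DAC depends on the reference: against the 3.2 and 16 nM libraries of the same compound, in the fit of 26 groups, 43 rose with GSK032 and 23 with DAC, where 9.16% and 11.2% of all genes did. At 3.2 nM, where 0.4% of all genes were called between the compounds, 9 of the 49 were higher with GSK032. The count was 0 at 16 nM and 4 at 80 nM, so it did not rise steadily with dose. IFIT1, for example, was at 2.9 and 3.4 FPKM with 3.2 nM GSK032 but at 0.15 and 0.37 with 16 nM.

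IFI27, an interferon-induced mitochondrial protein gene, stood at 486 and 448 FPKM with 2000 nM GSK032 and at 357 and 318 with 10000 nM. With DAC it stood at 37.6 and 19.5 FPKM (2000 nM) and at 12.0 and 21.5 (10000 nM), and in DMSO at 1.58 and 0.927. Both compounds raised it, and GSK032 by far more, with a direct difference of 4.22 ± 0.25 (SE, 4 libraries per compound, adjusted p = 3.6e-05). MX1, a GTPase that blocks viral nucleocapsids, was at 126 and 141 FPKM with 2000 nM GSK032, 95.7 and 97.5 with 10000 nM, 8.22 and 5.98 with 2000 nM DAC, 4.91 and 5.27 with 10000 nM DAC, and 4.09 and 2.80 in DMSO. Its DAC libraries all lay above DMSO, by 0.74 on average and without a call, while the direct difference was 4.13 ± 0.13 (adjusted p = 2.78e-06).

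IFI44L, a negative feedback gene of the interferon response, was at 25.2 to 48.4 FPKM with GSK032, 0.973 to 2.28 with DAC and 0.661 to 0.867 in DMSO. IFI44, its neighbor on chromosome 1, was at 37.6 to 72.7, 2.18 to 3.17 and 1.38 to 1.68 FPKM. IFIT1, which binds RNA with a foreign cap, was at 27.3 to 47.0, 1.3 to 3.55 and 1.44 to 2.38 FPKM. In each of these 3 genes the groups did not overlap between compounds, the direct differences were 3.98, 3.97 and 3.77, and DAC was not called against DMSO. DMSO stood above low-dose DAC for these genes, since at 3.2 to 80 nM DAC IFIT1 was at 0.0951 to 0.16 FPKM and IFI44 at 0.057 to 0.322. Against the 3.2 and 16 nM libraries high-dose DAC raised IFI44L by 1.65, IFI44 by 2.30, IFIT1 by 2.04 and MX1 by 1.44, each called.

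Upstream sequence is shown for interferon genes because these members moved together and this gene class is known for a shared motif. The interferon-stimulated response element was searched as GAAA, any 2 bases and GAAA again, on both strands, in the 250 bases before the RefSeq start (build GRCh38.p14). It stood in 839 of 27305 promoters (3.07%) and in 20 of the 34 interferon list members called higher with GSK032 that the promoter table holds (34 of 42, 81.0%). Sequences below are upstream of the RefSeq start and stop before any GENCODE 29 exon there, and capitals mark the motif on either strand. For IFI44L and IFI27 GENCODE 29 also has transcripts that start further upstream, so these stretches lie in an intron of those.
IFI44L, chr1:78620198-78620381, plus strand: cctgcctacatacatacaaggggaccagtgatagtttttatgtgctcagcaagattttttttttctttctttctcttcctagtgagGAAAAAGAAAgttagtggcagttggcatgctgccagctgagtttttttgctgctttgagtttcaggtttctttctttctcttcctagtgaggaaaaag
IFI44, chr1:78649539-78649788, plus strand: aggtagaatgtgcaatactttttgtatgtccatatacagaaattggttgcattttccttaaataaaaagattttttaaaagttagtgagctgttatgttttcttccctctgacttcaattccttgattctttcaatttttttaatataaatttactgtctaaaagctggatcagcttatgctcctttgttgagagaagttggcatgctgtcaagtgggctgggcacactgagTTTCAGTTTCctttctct
IFI27, chr14:94110486-94110677, plus strand: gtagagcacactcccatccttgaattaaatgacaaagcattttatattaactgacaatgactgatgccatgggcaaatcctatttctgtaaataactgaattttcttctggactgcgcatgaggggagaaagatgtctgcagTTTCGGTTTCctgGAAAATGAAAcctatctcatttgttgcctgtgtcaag
The motif began 164 bases before the start of IFI44L, 18 bases before that of IFI44, and 108 and 95 bases before that of IFI27. A match is a description of these letters and no evidence of binding.

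RNA sensors moved with the interferon genes in part. Of 20 tested genes of nucleic acid sensors and their adaptors, 7 were higher with GSK032 and 0 with DAC, with a median of 0.48. EIF2AK2, the kinase PKR that senses double-stranded RNA, was at 47.1 and 52.5 FPKM with 2000 nM GSK032, 36.6 and 37.6 with 10000 nM, 7.13 to 9.00 with DAC and 6.08 to 6.20 in DMSO. Its difference of 2.35 ± 0.07 (adjusted p = 2.48e-06) stood beside 1.88 for IFIH1 (MDA5), 1.58 for DHX58 (LGP2) and 1.57 for DDX58 (RIG-I). None of the 20 was called against DMSO with DAC, where 7 rose with GSK032. These 3 sensors and EIF2AK2 are interferon-induced themselves.

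Antigen presentation split by class. Of 21 genes of HLA class I presentation 7 were higher with GSK032 and 0 with DAC. Groups did not overlap, with GSK032 above, for 15 of them, against 21.2% of all genes tested. Against DMSO, 6 rose with GSK032 and 7 fell with DAC, so members moved from both sides of DMSO. TAP1, a subunit of the peptide transporter, was at 26.1 to 37.5 FPKM with GSK032, 6.97 to 15.2 with DAC and 10.5 to 11.7 in DMSO, a difference of 1.59 ± 0.16 (adjusted p = 0.000273). TAP2, its partner subunit, was at 15.7 to 21.4 FPKM with GSK032, close to the 17.5 and 18.7 in DMSO, and at 4.93 to 9.09 with DAC, where it was called lower than DMSO. In contrast, 12 of 17 HLA class II genes rose with each compound, and 1 of 17, HLA-DOB, was called between them. After rescaling by the median ratio 4 class I genes and 5 sensor genes were called between the compounds, and 3 class I genes fell with DAC.

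Germline and cancer-testis genes, normally transcribed in the testis or germ cells, were higher with GSK032. Of 68 list members 47 were tested, and since most were near 0 in DMSO a member passed the filter mainly through the group where it was high. Of these 47, 40 were called higher with GSK032 and 0 with DAC (median 2.11), 43 rose with GSK032 against DMSO, and 27 rose and 1 fell with DAC. Many germline genes were thus raised by both compounds, to unequal levels. Members of the MAGE, PAGE, CTAG, VCX and RHOXF families are near-identical copies, so the FPKM of a single copy is uncertain.

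DAZL, a germ cell RNA-binding protein gene at chr3:16586792-16670306, stood at 71.7 and 49.9 FPKM with 2000 nM GSK032 and at 73.9 and 63.9 with 10000 nM. With DAC it stood at 12.1 and 7.07 FPKM (2000 nM) and at 1.94 and 1.72 (10000 nM), and in DMSO at 0.0538 and 0.00771. DAC libraries lay above DMSO and below GSK032 at both doses, with the 10000 nM libraries below the 2000 nM ones, and the direct difference was 3.76 ± 0.43 (adjusted p = 0.000483). CTAG2, a cancer-testis antigen gene of the X chromosome, was at 13.3 to 22.6 FPKM with GSK032, at 3.08 and 1.93 with 2000 nM DAC, at 0.239 and 0.397 with 10000 nM DAC, and listed at 0 in DMSO. VCX, a testis-expressed X-linked gene, was at 36.7 to 48.5 FPKM with GSK032, at 8.45 and 4.14 with 2000 nM DAC, at 0.685 and 1.37 with 10000 nM DAC, and at 0.0992 and 0 in DMSO. HIST1H2BA, the testis variant of histone H2B, was at 18.4 to 22.4 FPKM with GSK032 and at 0.202 to 1.76 with DAC, against 0.284 and 0.0821 in DMSO. In all 4 genes every GSK032 library was above every DAC library.

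CpG sites are the substrate of DNMT1, so 2 germline promoters are shown with each CG in capitals, again upstream of the RefSeq start on GRCh38.p14 and ending before any GENCODE 29 exon there. The DAZL stretch lies in an intron of longer GENCODE 29 transcripts, whose start sets the gene's outer coordinate given above.
DAZL, chr3:16605500-16605673, minus strand: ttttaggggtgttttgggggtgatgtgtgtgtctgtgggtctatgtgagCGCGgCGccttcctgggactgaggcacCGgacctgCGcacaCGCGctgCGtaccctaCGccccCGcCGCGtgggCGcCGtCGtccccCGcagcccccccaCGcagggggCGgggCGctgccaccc
MAGEC2, chrX:142205291-142205540, minus strand: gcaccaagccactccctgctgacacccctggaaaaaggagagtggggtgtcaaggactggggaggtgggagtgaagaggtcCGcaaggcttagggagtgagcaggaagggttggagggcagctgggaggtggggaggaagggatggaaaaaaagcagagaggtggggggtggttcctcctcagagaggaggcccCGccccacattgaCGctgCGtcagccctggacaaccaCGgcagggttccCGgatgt
DAZL holds 19 CpG in 174 bases, and 14.5% of all promoters hold as many in a stretch of that length. MAGEC2 holds 6 in 250 bases, which 61.3% of promoters reach. A comparison of CpG content between the called sets would be void, as the promoter table holds 76.2% of protein-coding genes higher with GSK032 and 70.3% of those higher with DAC, both under the 80% needed.

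The X chromosome held 87 of the genes higher with GSK032, 14.33% of its 607 tested genes, and 20 higher with DAC (3.29%). Germline list members were 26 of the 87, and 61 were not in that list, 10.5% of the tested X genes outside it. The list does not hold every testis-expressed gene, as VCX is among the 61. This share thus does not separate germline genes from other X genes. Among gene classes, long intergenic RNAs had 10.68% higher with GSK032 and 7.01% higher with DAC, and antisense RNAs 4.23% and 9.86%. The sources give no strand setting for the counting, so an antisense RNA and its partner cannot be told apart. Zinc finger genes of chromosome 19, of which many repress retroelements, had 4 of 41 higher with GSK032 (ZSCAN18, ZNF560, ZNF542P and ZNF418) and 0 higher with DAC. Of all genes 5.01% and 5.42% were called. Against DMSO 17 of the 41 rose with GSK032 and 10 with DAC, where 9.59% and 10.8% of all genes did.

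Imprinted genes, which are normally methylated on 1 parental copy, were called in both directions. H19, a maternally expressed long noncoding RNA at chr11:1995176-2001470, was at 46.7 and 31.2 FPKM with 2000 nM DAC and 71.8 and 40.7 with 10000 nM. With GSK032 it was at 0.193 to 0.488 FPKM and in DMSO at 0.166 and 0.161. DAC alone moved it, and its difference of -5.89 ± 0.24 (adjusted p = 7.42e-06) was larger in the main fit than that of any protein-coding gene named here. Over the alternatives run H19 reached -6.95 and the protein-coding gene PRLH -7.51, so this order depends on the setting. PEG3, a paternally expressed zinc finger gene at chr19:56810077-56840728, showed the opposite, with 12.8 to 14.1 FPKM for GSK032, 1.03 to 2.50 for DAC and 1.81 to 2.06 in DMSO, a difference of 2.70 ± 0.17. ZIM2, which overlaps PEG3, was called with it and cannot be counted apart from it. CDKN1C, an imprinted inhibitor of cyclin-dependent kinases, rose with both compounds, from 0.725 and 0.751 FPKM in DMSO to 7.68 to 9.74 with GSK032 and 34.3 to 63.2 with DAC. PHLDA2, beside CDKN1C on chromosome 11, rose with DAC alone. Of 21 tested imprinted genes these 5 were the ones called, 2 higher with GSK032 and 3 with DAC, where 5.01% and 5.42% of all genes were. As PEG3 and ZIM2 overlap and the other 3 lie on chromosome 11, the 5 calls are not separate observations.

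**Figure D2:**
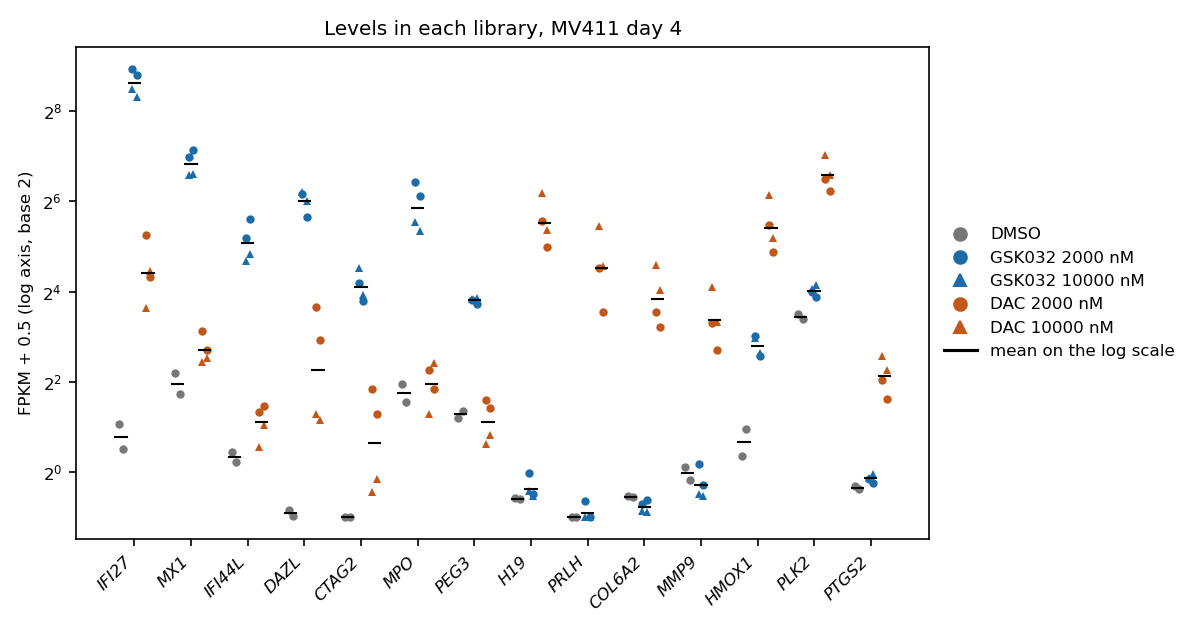
FPKM + 0.5 on a log axis for 14 genes, with 1 symbol per library and a bar at the mean on the log scale for DMSO, GSK032 and DAC. For the first 7 genes every GSK032 symbol lies above every DAC symbol, as for PEG3 with 12.8 to 14.1 FPKM against 1.03 to 2.50, and for the last 7 every DAC symbol lies above every GSK032 symbol, as for H19 with 31.2 to 71.8 against 0.193 to 0.488.

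Genes of the extracellular matrix were higher with DAC. Of 26 list members 16 were tested. Some of them, as COL6A2, SPARC and COL1A1, passed the filter through their DAC libraries alone, so the share called depends on that filter. Of the 16, 9 were called higher with DAC (COL6A2, COL6A1, SPARC, COL5A1, COL1A1, THY1, TIMP3, PDGFRA and ACTA2) and 0 with GSK032, with a median of -1.04. Against DMSO 9 members of the list rose with DAC and 1 with GSK032. COL6A2, a chain of type VI collagen, was at 11.3 and 8.83 FPKM with 2000 nM DAC, 23.5 and 15.8 with 10000 nM, 0.0414 to 0.148 with GSK032 and 0.176 to 0.187 in DMSO. COL6A1, its neighbor on chromosome 21 and partner chain, was at 14.9 to 26.0 FPKM with DAC, 0.778 to 1.33 with GSK032 and 0.877 to 1.23 in DMSO. The GSK032 libraries of COL6A1 lay around those of DMSO, and the difference was -3.63 ± 0.15 (adjusted p = 7.42e-06). The fibroblast collagens were not alike. COL1A1 was at 2.24 to 5.30 FPKM with DAC and at 0.07 to 0.35 with GSK032. COL3A1 was at or near 0 in all 10 libraries, with 0.0269 FPKM as its highest value.

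Among the other protein-coding genes with the largest excess in DAC, known roles ranged from a peptide hormone to a lipid carrier. PRLH, which encodes a hypothalamic releasing peptide, was at 22.7 and 11.2 FPKM with 2000 nM DAC, 43.6 and 23.1 with 10000 nM, and listed at 0 in 3 of 4 GSK032 libraries and in both DMSO libraries. Its difference was -5.44 ± 0.33 (adjusted p = 3.6e-05). ZFP36L1, an RNA-binding protein that speeds mRNA decay, was at 15.7 to 27.0 FPKM with DAC against 1.04 to 1.46 with GSK032 and 1.07 to 1.23 in DMSO. AQP1, a water channel, was at 5.59 to 12.0 FPKM with DAC and at 0.172 to 0.278 with GSK032. The lipid carrier gene APOC1 was at 82.5 to 164 FPKM with DAC, 8.56 to 11.0 with GSK032 and 10.8 to 11.3 in DMSO. MLPH, HTRA3 and SPARC showed the same picture with differences of -3.56, -3.36 and -3.38. MLPH ends at chr2:237555318 and PRLH starts at chr2:237566574 on the same strand. These 2 neighbors may therefore not be separate observations, which was not tested. None of these 7 genes was called against DMSO with GSK032.

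The upstream stretches of the 2 leading genes are given for comparison with the germline ones, with each CG in capitals.
PRLH, chr2:237566324-237566573, plus strand: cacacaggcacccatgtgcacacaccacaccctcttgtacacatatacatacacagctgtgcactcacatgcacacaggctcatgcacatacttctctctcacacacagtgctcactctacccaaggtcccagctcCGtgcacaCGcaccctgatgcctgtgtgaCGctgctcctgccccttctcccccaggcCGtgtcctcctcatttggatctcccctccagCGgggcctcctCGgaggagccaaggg
COL6A2, chr21:46097862-46098096, plus strand: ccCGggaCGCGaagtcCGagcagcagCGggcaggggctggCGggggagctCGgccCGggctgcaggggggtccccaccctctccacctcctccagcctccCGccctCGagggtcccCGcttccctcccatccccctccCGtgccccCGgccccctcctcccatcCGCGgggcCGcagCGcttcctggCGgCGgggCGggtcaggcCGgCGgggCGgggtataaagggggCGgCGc
PRLH holds 6 CpG in 250 bases, as MAGEC2 does, and COL6A2 holds 25 in 235 bases, which 17.5% of promoters reach. CpG-rich and CpG-poor stretches thus stood on both sides of the comparison in these 4 genes.

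Myeloid genes were called in both directions. Of 18 primary granule and granulocyte genes, 7 were higher with GSK032 (MPO, ELANE, PRTN3, SRGN, CAMP, AZU1 and RNASE2) and 4 with DAC (MMP9, PRG2, CLC and CEACAM6). MPO, the myeloperoxidase of primary granules, was at 85.4 and 68.6 FPKM with 2000 nM GSK032, 46.3 and 40.0 with 10000 nM, 1.94 to 4.80 with DAC and 2.45 to 3.40 in DMSO, a difference of 3.91 ± 0.26 (adjusted p = 5.07e-05). The DAC libraries of MPO lay around those of DMSO. ELANE, neutrophil elastase, was at 385 to 534 FPKM with GSK032, 83.3 to 196 with DAC and 188 to 206 in DMSO, so that GSK032 lay above DMSO while DAC was not called, at -0.72. Against 3.2 and 16 nM of the same compound these calls changed places, with 0.98 for GSK032 and -1.19 for DAC. MMP9, a gelatinase of neutrophil granules, went the other way, with 6.04 to 16.7 FPKM for DAC, 0.190 to 0.633 for GSK032 and 0.388 to 0.580 in DMSO.

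Of 34 monocyte and macrophage genes, 8 were higher with DAC, among them APOE, S100A8, C1QA, VCAN, S100A9, ITGAM and KLF4. With GSK032 3 were higher (SIGLEC1, LYZ and CD4), where 5.42% of all genes were higher with DAC and 5.01% with GSK032. Under equal sums the tally turned to 6 with DAC and 12 with GSK032. SIGLEC1, a macrophage lectin that interferon induces, was at 8.72 to 13.1 FPKM with GSK032, 1.25 to 1.62 with DAC and 0.108 to 0.158 in DMSO. KIT, the stem cell factor receptor, rose with both compounds, to 2.94 to 3.94 FPKM with GSK032 and 12.6 to 17.6 with DAC from 0.983 and 1.35 in DMSO. BCL2, an inhibitor of apoptosis, was at 71.0 and 73.2 FPKM in DMSO, 48.8 to 56.1 with GSK032 and 19.2 to 24.6 with DAC, where it fell by 1.69. In bulk RNA a change in the share of cells of a state and a change in RNA per cell cannot be told apart.

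**Figure D3:**
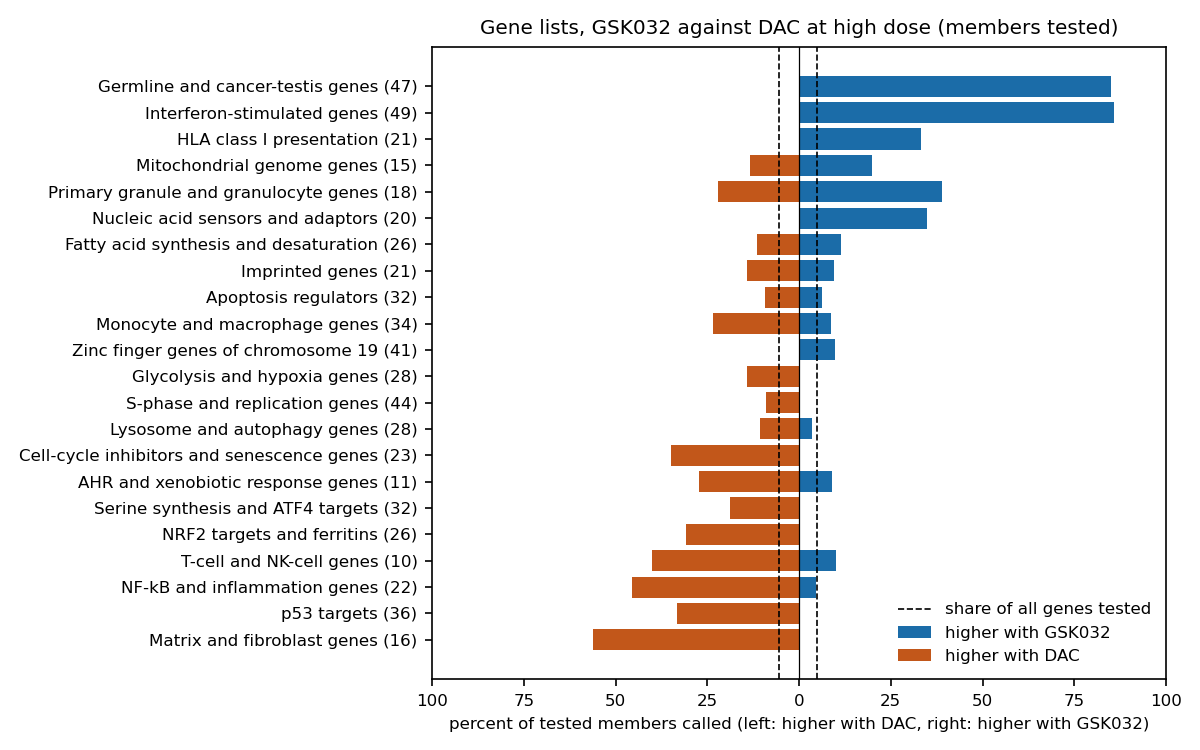
Percent of the tested members of each list called higher with GSK032 (right) or with DAC (left), for lists with at least 4 members called, ordered by their median difference, with dashed lines at the 5.01% and 5.42% of all genes tested. Interferon and germline lists reach furthest right with 42 of 49 and 40 of 47 members, and the matrix list furthest left with 9 of 16.

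Of 36 p53 targets 12 were called higher with DAC (PLK2, GDF15, PMAIP1, CDKN1A, SPATA18, GADD45A, PLK3, FAS, BTG2, FDXR, ACER2 and ZMAT3) and 0 with GSK032, with a median of -0.76 that was -0.17 after rescaling to equal sums, when 5 were higher with DAC and 1 with GSK032. PLK2, a stress-induced kinase, was at 90.1 and 74.2 FPKM with 2000 nM DAC, 130 and 94.8 with 10000 nM, 14.2 to 17.3 with GSK032 and 10.0 to 10.8 in DMSO, a difference of -2.56 ± 0.12 (adjusted p = 1.08e-05). CDKN1A, the p21 inhibitor of cyclin-dependent kinases, was at 71.5 to 116 FPKM with DAC, 23.8 to 30.4 with GSK032 and 48.3 to 49.5 in DMSO. Neither step of CDKN1A from DMSO was called, at 0.86 and -0.88, while the direct difference of -1.74 ± 0.18 was (adjusted p = 0.000288). GDF15, a stress cytokine, was at 2.95 to 6.43 FPKM with DAC and at 0.134 to 0.620 with GSK032. Against DMSO 9 of the 36 rose and 3 fell with DAC, and 2 rose and 4 fell with GSK032. Of all genes 10.8% rose and 11.4% fell with DAC, and 9.59% rose and 6.94% fell with GSK032. The list of DNA damage repair and checkpoint genes did not separate the compounds in this way. Of its 51 genes 1, LIG1, was higher with DAC and 0 with GSK032, with a median of 0.03. Against DMSO 0 rose and 28 fell with DAC, and 0 rose and 29 fell with GSK032. Under equal sums 7 of the 51 were higher with GSK032 and 0 with DAC.

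Among inflammatory and oxidative stress genes, most of those called were higher with DAC. Of 22 genes of the NF-kB and inflammation list, 10 were higher with DAC and 1, NLRP3, with GSK032, with a median of -0.67 that was -0.14 under equal sums, when 5 were higher with DAC and 1 with GSK032. CCL2, a monocyte chemokine, was at 17.2 to 39.7 FPKM with DAC, 5.57 to 6.37 with GSK032 and 3.25 to 4.12 in DMSO. PTGS2, the inducible cyclooxygenase, was at 2.59 to 5.44 FPKM with DAC and at 0.351 to 0.475 with GSK032. Of 26 NRF2 targets and ferritin genes 8 were higher with DAC and 0 with GSK032, with a median of -0.36 that turned to 0.18 under equal sums, when 5 were higher with DAC. HMOX1, heme oxygenase, rose with both compounds, from 0.778 and 1.45 FPKM in DMSO to 5.44 to 7.53 with GSK032 and 28.8 to 70.1 with DAC. FTH1, the ferritin heavy chain, was at 279 to 406 FPKM with GSK032 beside 307 and 320 in DMSO, and was at 1053 to 1861 with DAC. It has many processed pseudogenes, so its level is uncertain.

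Serine synthesis genes and targets of ATF4, the transcription factor of the integrated stress response, mostly fell with both compounds, 21 of 32 with GSK032 and 20 with DAC. Between the compounds 6 were higher with DAC and 0 with GSK032, with a median of -0.21 that turned to 0.33 under equal sums, when 4 were higher with DAC and 7 with GSK032. DDIT3, the transcription factor CHOP, was at 7.40 to 9.39 FPKM with GSK032, 20.2 to 35.1 with DAC and 19.6 to 19.9 in DMSO. DDIT3 changed by -1.19 with GSK032, and DAC was not called, at 0.42. Against 3.2 and 16 nM DAC, where DDIT3 was at 8.87 to 11.8 FPKM, high-dose DAC raised it by 1.29. Outside that list, further genes fell from DMSO with GSK032 and were not called with DAC. SLC2A3, a glucose transporter, was at 1.72 to 2.42 FPKM with GSK032, 8.67 to 15.6 with DAC and 14.8 to 17.1 in DMSO, and FCER2, the low-affinity IgE receptor CD23, at 0.824 to 1.46, 5.84 to 14.5 and 10.5 to 12.1. DAC at 3.2 to 80 nM also had less of both than DMSO, with 3.3 to 8.98 FPKM of SLC2A3 and 4.17 to 5.61 of FCER2. RGS1, a regulator of G-protein signaling, moved in opposite directions, to 0.384 to 0.724 FPKM with GSK032 and 6.58 to 11.9 with DAC from 1.58 and 2.10 in DMSO.

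Of 11 xenobiotic response genes 3 were higher with DAC (CYP1A1, CYP1B1 and NQO1) and 1, AHRR, with GSK032, where 5.42% and 5.01% of all genes were. The median of -0.15 turned to 0.28 under equal sums, when 2 were higher with DAC and 1 with GSK032. CYP1B1 and CYP1A1, cytochrome P450 genes that the aryl hydrocarbon receptor induces, were higher with DAC by 2.00 and 2.27 on the log2 scale, while the difference for AHRR, the repressor of that receptor, was 1.37. CYP1B1 was at 35.4 to 65.4 FPKM with DAC, 8.39 to 16.2 with GSK032 and 1.39 to 2.25 in DMSO. AHRR was at 53.3 to 71.8 FPKM with GSK032, 27.0 and 35.5 with 2000 nM DAC, 16.9 and 18.9 with 10000 nM DAC and 12.0 in both DMSO libraries.

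Some lipid synthesis genes fell with both compounds. Of 26 fatty acid genes 6 fell and 1 rose with GSK032, and 11 fell and 3 rose with DAC. Between the compounds 3 were higher with GSK032 (SCD, FADS2 and FASN) and 3 with DAC (MLXIPL, ME1 and FADS3), where 5.01% and 5.42% of all genes were. Under equal sums the counts were 12 and 2. SCD, the desaturase that makes oleate, was at 133 and 151 FPKM in DMSO, 22.9 to 35.2 with GSK032 and 7.16 to 9.65 with DAC, a difference of 1.73 ± 0.12 (adjusted p = 5.21e-05). FADS2, a desaturase of polyunsaturated fatty acids, and FASN, fatty acid synthase, showed 1.26 and 1.14, the latter not called after rescaling by the median ratio. Of 33 cholesterol genes 19 fell with GSK032 and 22 with DAC, and 1, ABCA1, was called between them, higher with DAC. Under equal sums 16 cholesterol genes were higher with GSK032 and 0 with DAC. ABCA1, the cholesterol exporter, was at 0.595 to 0.815 FPKM with GSK032, 1.44 to 2.81 with DAC and 2.22 to 2.78 in DMSO. Its call was lost with a pseudocount of 1 and under equal sums.

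Proliferation genes fell with both compounds. All 47 mitosis genes fell with GSK032 and 45 with DAC, and 0 were called between the compounds (median 0.34), while under equal sums 17 were higher with GSK032 (median 0.86). BUB3, a spindle checkpoint gene, was at 90.1 to 109 FPKM with GSK032, 84.8 to 120 with DAC and 224 to 246 in DMSO, a difference of -0.06 ± 0.11. Of 39 replication-linked histone genes 37 fell with each compound, and 1, HIST1H1A, was higher with GSK032. Of 44 S-phase and replication genes 44 fell with GSK032 and 38 with DAC. Between the compounds 4 were higher with DAC, where 5.42% of all genes were. Under equal sums 4 of the 44 were higher with GSK032 and 1 with DAC. LIG1, the ligase that joins Okazaki fragments, was at 14.9 to 18.3 FPKM with GSK032, 34.3 to 71.5 with DAC and 57.6 to 63.5 in DMSO. LIG1 changed by -1.86 with GSK032, DAC was not called, at -0.35, and the direct call was lost under equal sums. Of 34 ribosomal protein genes 0 were called between the compounds, 17 fell with DAC and 0 with GSK032 against DMSO, and 1 fell with DAC after rescaling by the median ratio. Under equal sums 20 of the 34 were higher with GSK032 and 33 fell with DAC. Of 26 nuclear oxidative phosphorylation genes 0 were called between the compounds, 6 fell with GSK032 and 16 with DAC, and 7 fell with DAC after the median-ratio rescaling. Under equal sums 8 of the 26 were higher with GSK032 and 24 fell with DAC. A p that misses the threshold does not show that these levels were the same.

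The target and most enzymes of decitabine metabolism were not called between the compounds. DNMT1 was at 128 and 141 FPKM in DMSO, 77.6 to 90.0 with GSK032 and 64.1 to 68.1 with DAC, a difference of 0.34 ± 0.08 (adjusted p = 0.00945), too small to be called. DNMT1 protein was not measured. UHRF1, which brings DNMT1 to replicating DNA, was at 137 and 148 FPKM in DMSO, 37.4 to 50.2 with GSK032 and 22.1 to 31.2 with DAC, a difference of 0.67 ± 0.14. DCK, the kinase that activates decitabine, was at 21.3 to 26.2 FPKM with GSK032 and 16.9 to 24.2 with DAC, 0.14 ± 0.10. CDA, the deaminase that inactivates it, was at 1.49 to 2.30 and 1.1 to 1.51 FPKM, above the 0.0991 and 0.271 of DMSO, and SAMHD1, a nucleotide hydrolase that interferon also induces, at 146 to 180 and 50.1 to 79.3 against 85.0 and 85.4 in DMSO. Of these genes SAMHD1 was called, with 1.34 ± 0.10 (adjusted p = 8.15e-05).

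Each dose was then tested alone. At 2000 nM 618 genes were higher with GSK032 and 775 with DAC (6.89% of those tested), and at 10000 nM 1062 and 1099 (10.7%). Of the 618 and 775 genes called at 2000 nM, 87.9% and 80.4% were called the same way at 10000 nM, and 51.1% and 56.7% the reverse. A compound by dose interaction was called for 0 genes (0%) in the limma fit of 5 groups, with 458 positive and 293 negative at an unadjusted p under 0.05 and a smallest adjusted p of 0.264. When the spread was taken from all 52 MV411 libraries in 26 groups, 136 genes were called, 117 with a positive sign (0.532%) and 19 with a negative sign.

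Of those 117 genes, 22 were among the 47 tested germline genes, and 0 of 49 interferon genes and 0 of 36 p53 targets were called in either direction. As the 47 passed the filter mainly through the high-dose group where they were high, the 22 are a description. The median difference of germline genes was 1.55 at 2000 nM and 2.61 at 10000 nM, and that of interferon genes 1.75 and 1.81. DAZL showed an interaction of 2.26 ± 0.26 in that fit (adjusted p = 1.92e-05), with GSK032 libraries at similar levels at both doses and DAC libraries lower at 10000 nM. The step between the doses within DAC was not tested by itself.

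**Figure D4:**
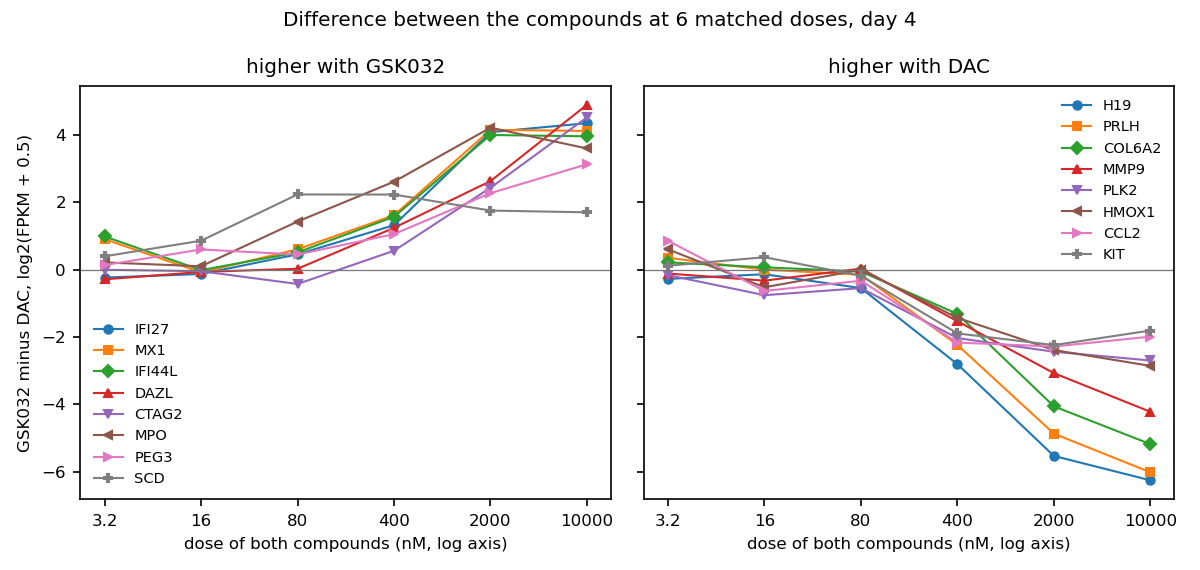
Difference between GSK032 and DAC at the same dose (y axis, log2(FPKM + 0.5)) over 6 doses on a log axis, for 8 genes higher with GSK032 (left) and 8 higher with DAC (right). DAZL and CTAG2 go on widening to 4.89 and 4.52 at 10000 nM, MX1 stands at 4.15 and 4.12 at the upper doses, and SCD is already apart at 80 nM.

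The difference at 400 nM, measured in other libraries, had the same sign for 899 of the 1014 genes higher with GSK032 (88.7%) and 1035 of the 1096 higher with DAC (94.4%), where 54.5% and 44.5% of all genes had those signs. In that comparison 421 genes (1.91%) were called, and they held 86 of the 1014 genes and 213 of the 1096. The difference at high dose minus that at 400 nM was called for 759 genes (3.45%), 473 positive and 286 negative. Germline genes had 35 of 47 and interferon genes 38 of 49 called positive, so in these lists most members stood further apart at high dose than at 400 nM. The high-dose values enter this contrast. For germline genes they also mainly decided which members passed the filter, so these counts are a description. Of 36 p53 targets 0 were called in that contrast, and 7 were already higher with DAC at 400 nM. CCL2 differed by -2.16 at 400 nM and by -2.13 at high dose, and KIT by -1.89 and -2.02.

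Levels over the doses took different courses. IFI27 was below 3 FPKM up to 80 nM of either compound. At 400 nM it was at 48.1 and 49.0 FPKM with GSK032 and 17.8 and 20.5 with DAC, and at 2000 nM at 448 and 486 with GSK032 but 19.5 and 37.6 with DAC. H19 stayed below 0.5 FPKM with GSK032 at all 6 doses, while with DAC it was at 3.74 and 4.37 FPKM at 400 nM and 31.2 and 46.7 at 2000 nM. MPO was highest below the high doses with DAC, at 15.2 and 15.5 FPKM for 80 nM and 12.4 and 17.8 for 400 nM, and was at 82.3 and 106 with 400 nM GSK032. SCD was lower at small doses of DAC than of GSK032, with 21.9 and 30.4 FPKM at 80 nM DAC and 116 and 131 at 80 nM GSK032. At 80 nM, where 148 genes were called between the compounds (0.673%), 15 of 33 cholesterol genes were higher with GSK032. The count was 5 at 400 nM, 0 at 2000 nM and 5 at 10000 nM.

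**Figure D5:**
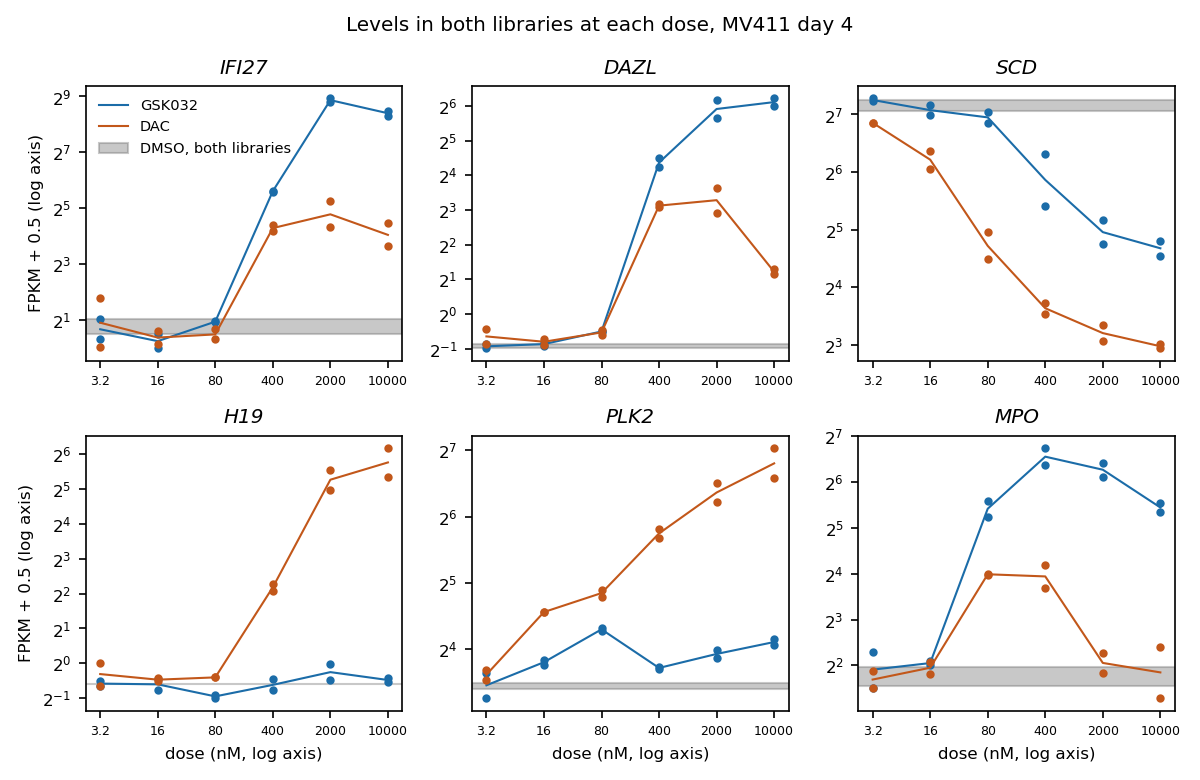
FPKM + 0.5 on a log axis in both libraries of each compound over 6 doses at day 4, with a line through their mean on the log scale and a grey band for the DMSO libraries. With DAC, MPO stands at 15.2 and 15.5 FPKM at 80 nM and at 1.94 to 4.80 at the high doses, and PLK2 reaches 130 FPKM while it is at 17.3 or less with 10000 nM GSK032.

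GSK477 is a further compound of the study, given at 10000 nM for 4 days. With it IFI27 was at 1.51 and 0.624 FPKM, DAZL at 0.0451 and 0.0134, COL6A2 at 0.162 and 0.179 and H19 at 0.327 and 0.143. The raised levels of these 4 genes with GSK032 or DAC were not seen in the GSK477 libraries. IFIT1 was below both DMSO libraries with GSK477, at 0.107 and 0.0382 FPKM. These values lay within or below the 0.0951 to 0.16 FPKM of 3.2 to 80 nM DAC.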

How the data were processed

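RNA-seq libraries of MV411 cells were analysed from a gene table that the authors deposited in FPKM, with no counts used here. Reads were processed with Salmon 0.12.0 and DESeq2 on hg38, per the submitters' processing notes. The step that made FPKM, and whether strand was used, are not given in the sources used here. Depth is therefore unknown, and the precision of each value rests on the spread between 2 libraries per group. Gene symbols, classes and positions came from GENCODE 29, which holds 56511 of 59939 genes (94.3%).

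Each library was mapped to its group by its label. Values were taken as log2(FPKM + 0.5), and genes with at least 1 FPKM in at least 2 of the 10 libraries were kept. limma 3.58.1 in R 4.3.3, with an intensity trend, fitted compound and dose with 6 residual degrees of freedom. A fit of 5 groups gave each dose and the interaction, and a fit of 26 groups on 52 libraries (22007 genes) gave the lower doses, with 26 residual degrees of freedom. The script was tested on simulated data. Tables were made with pandas 2.3.3 and figures with matplotlib 3.10.9.

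The 38 gene lists and the members were chosen with earlier results of these data known, so lists are described by counts and medians with no test. Named genes were the 10 largest non-overlapping protein-coding differences each way with a mean of at least 2 FPKM, up to 4 called members of each list, the 4 largest of each class against DMSO, and genes of DNA methylation and decitabine metabolism whatever their call. COL1A1, COL3A1, ZIM2 and names of called list members given without values stand outside that rule. Alternatives were other pseudocounts, filters, scalings, designs and leaving out each library.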

Additional observations from a re-analysis of the deposited data

Results flagged for a closer look

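The compound difference at the high doses was compared with that at 400 nM in the limma fit of 26 groups, and 20 named genes differed between these dose levels. A negative value means that DAC exceeded GSK032 by more at the high doses. For the 10 genes higher with DAC, high-dose difference minus 400 nM difference was -3.21 for PRLH, -3.30 for COL6A2, -2.12 for MMP9 and -2.28 for COL6A1. It was -1.19 for ZFP36L1, -2.35 for AQP1, -1.88 for MLPH, -1.58 for APOC1, -2.24 for SPARC and -1.66 for HTRA3. For the 10 genes higher with GSK032 it was 2.89 for IFI27, 2.52 for MX1, 2.16 for HIST1H2BA, 2.41 for IFI44L and 2.68 for IFI44. It was 1.29 for MPO, 2.73 for CTAG1A, 2.33 for VCX, 2.24 for IFIT1 and 2.52 for DAZL. ZFP36L1 and MPO had the smallest steps of the 20. The genes were picked for a large high-dose difference, which enters this contrast, so the steps are a description. Groups of 2 libraries are too small for a check of single outlying libraries.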

How the results depend on the processing

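Scaling moved the counts most. With libraries rescaled to equal sums, 4110 genes were higher with GSK032 and 526 with DAC, 1358 rose and 4333 fell with DAC against DMSO, and 2902 and 5179 were called at 2000 and 10000 nM. Rescaling by the median ratio gave 1278 genes that fell with DAC. A pseudocount of 1 gave 727 genes higher with DAC. Of the 1014 and 1096 genes, 1014 and 521 kept their call under equal sums, 815 and 1095 under the median ratio, and 788 and 720 with a pseudocount of 1. The cause was not tested. Taking the spread from 26 groups gave 136 interaction genes. No named gene's direct difference changed sign with a call in any of the alternatives run. The split of all calls turned under equal sums, and so did the direction of several lists. Among these were the medians of the NRF2, ATF4 and xenobiotic lists and the tallies of the monocyte and S-phase lists.

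Leaving out 1 library at a time gave 891 to 1060 genes higher with GSK032 and 926 to 1169 with DAC, 1664 to 1989 up and 1227 to 1534 down with GSK032, and 1955 to 2216 up and 2050 to 2604 down with DAC. Of 138 named genes called, 130 held without each single library and 110 under every alternative run for them.

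Replicate numbers are shared between groups, and same-numbered libraries deviated together, with correlations of 0.0613 to 0.439 over 10 pairs of groups and of 0.143 to 0.439 among the GSK032 and DAC groups. Replicate 1 had the larger FPKM sum in all 5 groups. The labels give no shared culture or day for a number, and 1 pair of groups with DMSO was under 0.1, so whether the numbers pair the libraries is undecided and the fit without pairing was kept. A replicate block changed no direct call of a named gene. With it 1104 and 1121 genes were called in the direct comparison, 2056 up and 1428 down with GSK032, 2227 up and 2355 down with DAC, 1629 at 2000 nM, 2396 at 10000 nM, 0 for the interaction and 769 for high dose minus 400 nM.

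The median-ratio rescaling for single doses and the reference of 3.2 and 16 nM were added after seeing the data. With that reference 2015 genes rose and 1445 fell with GSK032, and 2468 and 2465 with DAC. With 2 libraries per group and no depth, changes of low genes are the least certain.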
